A study of Mus musculus with 35 samples.

Results

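Pan-endothelial identity and junction genes were followed across 3 genotypes and 2 oxygen levels in RNA-sequencing of mouse whole lung. The 10 genes Pecam1, Cdh5, Cldn5, Vwf, Tie1, Erg, Emcn, Egfl7, Esam and Sox18 were taken by their symbols from a table of 54532 genes, each matched 1 gene identifier, and all 10 passed the filter on low counts in every comparison. Control mice were of the B6/129SJ2 background. Cav1-KO mice carried the global null allele of caveolin-1 labelled Cav1(tm1Mls/)J, and Cav1-RC mice were Cav1-KO mice in which caveolin-1 was put back in the endothelium, with a promoter that is not given in the sources used here. Adults of at least 3 months spent 6 weeks in normoxia or in a chamber held at 10% oxygen, called hypoxia, and the 34 lungs formed 12 groups by sex, genotype and oxygen level, with 3 libraries each except 2 in female Cav1-KO normoxia and 2 in female Cav1-RC normoxia. 1 further library has no certain group and entered no comparison.

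The inner lining of blood vessels is a single sheet of endothelial cells, and a small set of genes is used in nearly every organ to recognise it. Some of their products hold neighbouring cells together at adherens and tight junctions. Some sit on the surface and meet blood cells and growth factors, and Erg and Sox18 are transcription factors of the endothelial program. The lung, with its dense capillary bed, holds more endothelium than most tissues, so that these transcripts are abundant there. Since whole lung was sequenced, fewer endothelial cells and less RNA per endothelial cell cannot be told apart in any value given here.

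The libraries held 12425535 to 33343006 counts (median 18015172.5). Caveolin-1 itself checked the genotypes, since Cav1 stood at 989 to 1356 CPM (counts scaled to library size with TMM factors) in the 12 Control libraries and at 1.6 to 4.0 CPM in the Cav1-KO libraries. In the Cav1-RC libraries it stood at 1.48 to 6.56 CPM, which overlaps Cav1-KO, and whether the reconstituted transcript is counted under Cav1 was not tested. In 3 libraries labelled male (Cav1-RC normoxia replicates 1 and 2, Control hypoxia replicate 2) Xist was high and Y chromosome genes were near 0. Of the 34 libraries 12, those of mice whose numbers stand on the study's list of lungs used for western blots, lay apart from the other 22 on the first principal component (-89.2 to -43.4 against -5.12 to 63.6). These listed libraries comprised every hypoxic Cav1-KO library of either sex and every hypoxic Control male (replicate 2 with high Xist included). Replicate 1 of 3 female groups (Control in normoxia, Control in hypoxia, Cav1-RC in normoxia) was also listed. A term for the listed libraries, used below, was estimated from these 3 mixed female groups alone. In males and in Cav1-KO no group is mixed, so the term carries the female value over to them.

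Per unit of gene length, Cldn5, which encodes the main claudin of endothelial tight junctions, was the most abundant of the 10 genes, at a median of 444 FPKM (counts scaled to library size and gene length) over the 34 libraries. It was above every other member in each of the 34. Cdh5 (153 FPKM), Pecam1 (147 FPKM) and Egfl7 (135 FPKM) followed, and their order was not stable, with Cdh5 above Pecam1 in 26 libraries and Pecam1 above Egfl7 in 18. Sox18 (103 FPKM), Esam (95.9 FPKM) and Tie1 (84.7 FPKM) formed a middle tier in which neighbours also exchanged places, Sox18 standing above Esam in 23 libraries and Esam above Tie1 in 25. Tie1 was above Vwf in 33 libraries. Vwf (34.6 FPKM) exceeded Erg (31.8 FPKM) in 24 libraries, and Emcn was lowest at 14.0 FPKM. Emcn was also the most variable, with a highest value 5.05 times its lowest, against 2.10 times for Erg. Raw counts of the members ran from 759, for Emcn, to 31218, for Pecam1, so that counting error is small beside the spread between mice.

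**Figure D1:**
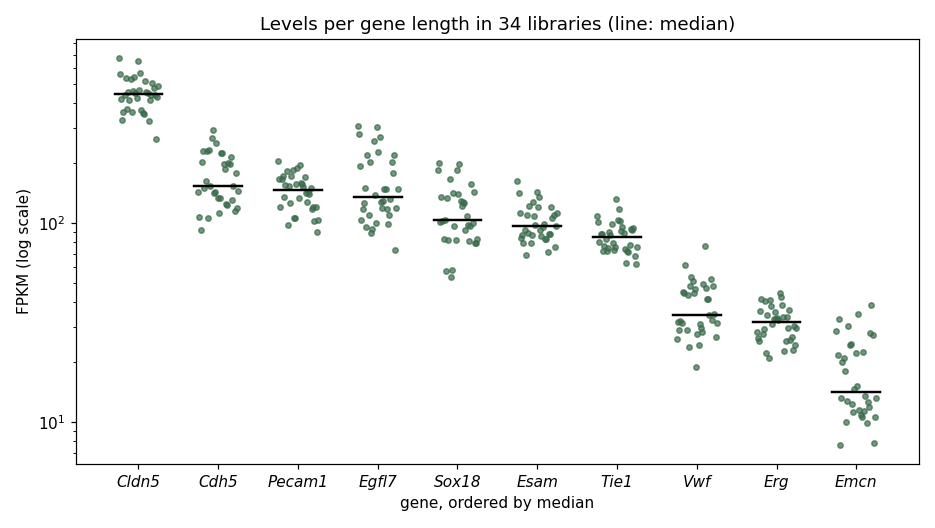
FPKM of each gene (log scale) in the 34 libraries, 1 point per library, with the median as a line and genes ordered by it. Cldn5 stands above all others and Emcn at the foot, with the widest spread.

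The upstream sequences of 4 members that were higher in 1 of the comparisons are shown here so that the values can be read beside them. RefSeq promoter windows of build GRCm38.p6 were matched for 5 of the 10 genes (Cldn5, Tie1, Erg, Emcn and Egfl7), with 9 windows in all, and the 250 bases before the start are printed 5′ to 3′ on the gene's strand. Capitals mark the letters GGAA, the core that ETS factors such as Erg recognise, and ACGTG or GCGTG, the core of the hypoxia response element, on either strand. Emcn (chr3:137340828-137341077, plus strand) is shown because it rose in hypoxia, Tie1 (chr4:118489850-118490099, minus strand) because it was higher in normoxic Cav1-KO lungs, Egfl7 (chr2:26580833-26581082, plus strand, the most upstream of its 3 windows) and Cldn5 (chr16:18776597-18776846, plus strand) because both were higher in hypoxic Cav1-KO lungs.
Emcn: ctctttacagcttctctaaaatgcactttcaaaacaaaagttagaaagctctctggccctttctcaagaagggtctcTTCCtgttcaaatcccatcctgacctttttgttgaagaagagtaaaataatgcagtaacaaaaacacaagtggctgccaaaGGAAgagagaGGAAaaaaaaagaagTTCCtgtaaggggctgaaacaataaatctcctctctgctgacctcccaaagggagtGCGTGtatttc
Tie1: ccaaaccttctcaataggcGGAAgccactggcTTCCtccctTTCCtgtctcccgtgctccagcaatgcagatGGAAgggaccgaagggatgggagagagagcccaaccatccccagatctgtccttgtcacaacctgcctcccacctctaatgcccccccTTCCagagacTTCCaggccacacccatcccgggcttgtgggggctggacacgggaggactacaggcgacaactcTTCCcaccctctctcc
Egfl7: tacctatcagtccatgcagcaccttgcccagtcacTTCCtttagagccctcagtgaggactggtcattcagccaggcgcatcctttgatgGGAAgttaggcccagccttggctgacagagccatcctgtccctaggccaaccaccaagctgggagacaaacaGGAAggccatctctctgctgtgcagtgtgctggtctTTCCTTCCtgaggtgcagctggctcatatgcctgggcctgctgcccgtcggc
Cldn5: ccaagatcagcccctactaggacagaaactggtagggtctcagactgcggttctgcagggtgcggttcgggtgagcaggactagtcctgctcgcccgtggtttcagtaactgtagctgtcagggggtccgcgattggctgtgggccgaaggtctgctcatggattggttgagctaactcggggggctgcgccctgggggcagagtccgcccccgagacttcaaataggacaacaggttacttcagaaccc
The Tie1 window held 7 matches to GGAA, that of Egfl7 held 5, that of Emcn held 4 and that of Cldn5 held 0, where 93.4% of all 32851 windows of this length held at least 1. The hypoxia core had 1 match in the Emcn window and 0 in the windows of Tie1, Egfl7 and Cldn5 shown here, and 38.6% of all windows held one. Of the 3 Erg windows, 2 held GGAA and 1 held the hypoxia core. The matches are a description of these letters and not of bound sites.

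How each gene stood in every library is drawn in the plot of CPM by group, and the 9 comparisons over both sexes in the plot of log2 fold changes. Each fold change is the mean of the female and the male log2 fold change, and a gene was called at an adjusted p under 0.05 over all genes tested (edgeR's quasi-likelihood test, Benjamini-Hochberg adjustment).

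**Figure D2:**
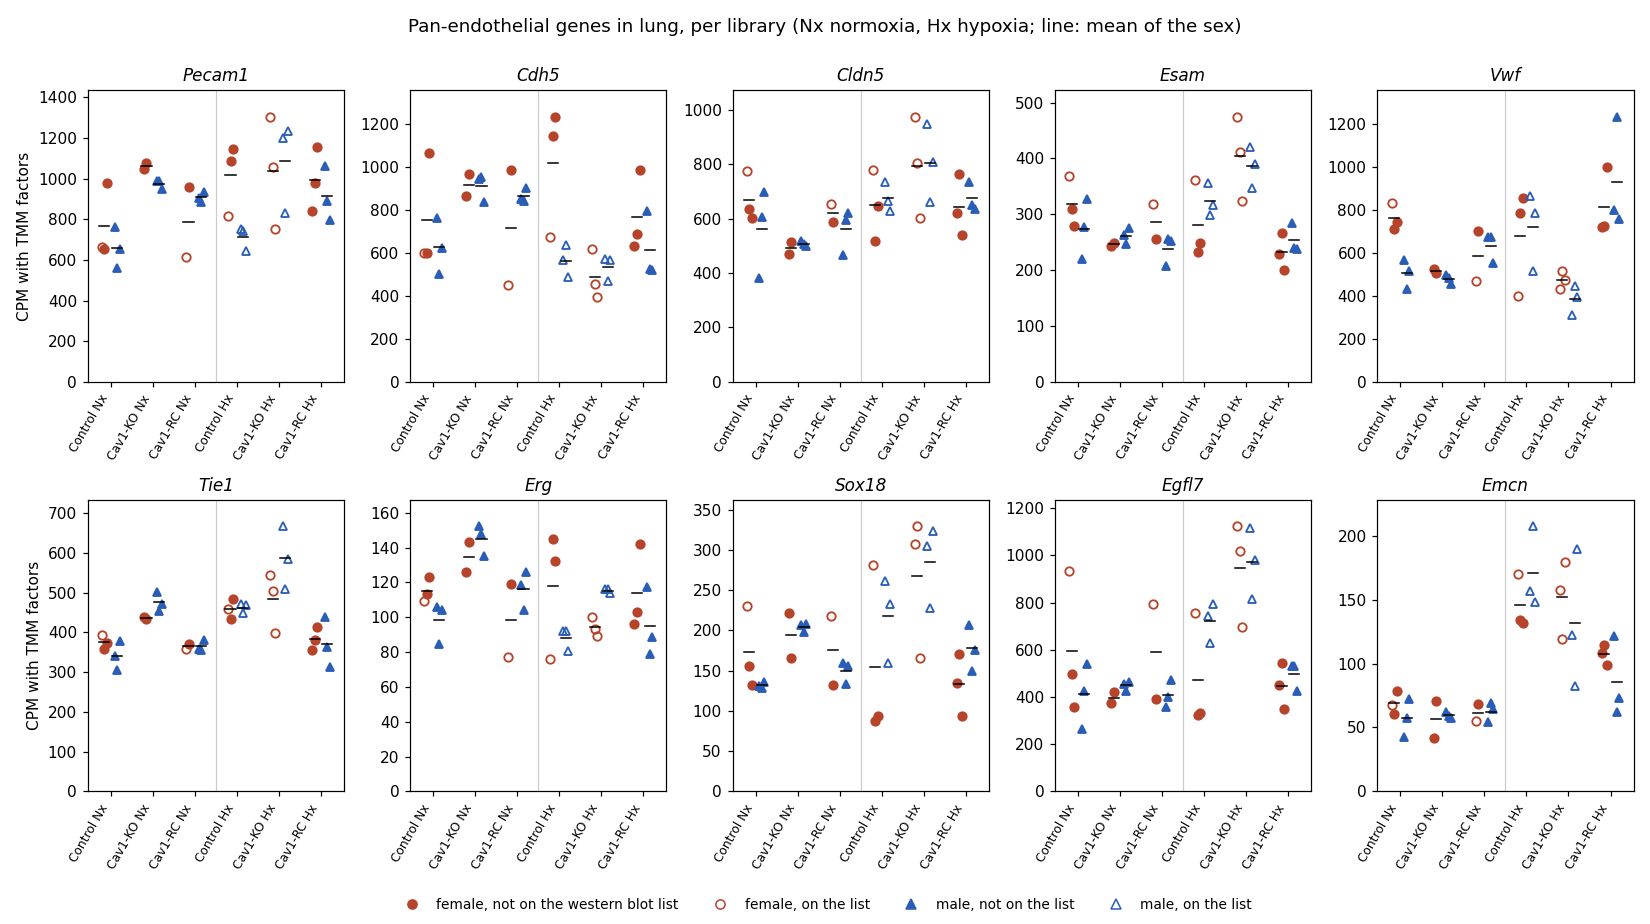
CPM with TMM factors of the 10 genes in each of the 34 libraries (circles female, triangles male, open symbols for listed libraries), by genotype in normoxia (Nx) and hypoxia (Hx), with the mean of each sex as a line. Emcn is higher in hypoxia than in normoxia in Control and Cav1-KO without overlap, and open symbols stand high for Egfl7 and low for Cdh5.

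**Figure D3:**
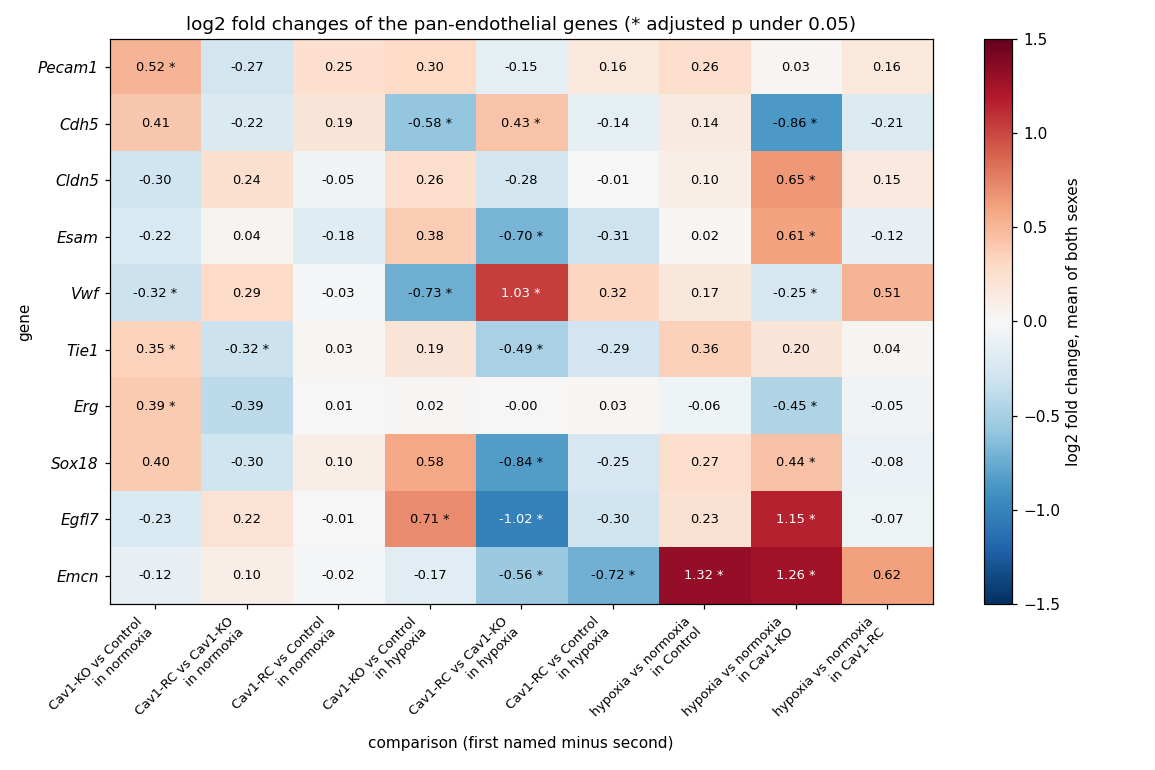
log2 fold changes of the 10 genes (rows) in the 9 comparisons over both sexes (columns), red for higher and blue for lower in the group named first, with an asterisk at an adjusted p under 0.05. Emcn has the strongest red in the oxygen comparisons of Control (1.32) and Cav1-KO (1.26), and columns with several called genes hold both colours.

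In normoxia, loss of caveolin-1 went with more Pecam1, Erg and Tie1 and with less Vwf, 4 of the 10 genes being called in Cav1-KO against Control where 13.2% of the 18540 genes tested were. The median log2 fold change of the 10 was 0.11, and that of all genes tested was -0.03. In males alone Pecam1, Erg, Tie1 and Sox18 were called (11.4% of all genes), and in females 0 were by edgeR, where 0.122% of all genes were called (1 member had an unadjusted p under 0.05, and DESeq2 called 0). In the same comparison over both sexes 8 of 8 airway club and ciliated markers were lower (median -1.28). Their summed level was 14717 to 18726 CPM in Cav1-KO and 21549 to 65157 CPM in Control. Fibroblast markers had 4 of 8 higher and 1 lower (median 0.48), and immune markers 1 of 12 higher and 4 lower (median -0.35). Smooth muscle and pericyte markers had 4 of 10 lower and 0 higher (median -0.39). The part of all these markers in the members' values was not tested. In Cav1-RC against Cav1-KO, 1 member was called, Tie1, which was lower in Cav1-RC (9.38% of all genes; median of the members -0.09, of all genes 0.00). Beside it 6 of 8 airway club and ciliated markers (median 1.11) and 4 of 12 immune markers (median 0.70) were higher in Cav1-RC, with 0 of either lower. In males, 4 members were called, with Tie1, Erg and Sox18 lower and Vwf higher in Cav1-RC (12.5% of all genes). There 9 of 12 immune markers (median 1.04), 4 of 6 erythroid markers (median 0.99) and 6 of 8 airway club and ciliated markers (median 0.61) were higher, and the part of such markers in the members' values was not tested. Of the 3 normoxic Cav1-RC libraries labelled male, 2 have high Xist. Without them 1 library is left in that arm, and the spread comes from the 3 Cav1-KO males alone. The differences were then -0.32 for Tie1, -0.39 for Sox18, -0.20 for Erg and 0.21 for Vwf. In females edgeR called 0 members and 0.10% of all genes (0 members at an unadjusted p under 0.05, 0 by DESeq2). Between Cav1-RC and Control in normoxia, 0 of the 10 were called by edgeR and 0 had an unadjusted p under 0.05, DESeq2's Wald test also called 0, and 3.33% of all genes were called. Within one sex edgeR called 0 members there, with 0.137% of all genes in females (0 members unadjusted, 0 by DESeq2) and 4.20% in males (3 unadjusted, 2 by DESeq2). Over both sexes the medians were 0.00 for the members and -0.01 for all genes.

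In hypoxia the 10 genes parted in both directions. Against hypoxic Control, hypoxic Cav1-KO lungs had more Egfl7 and less Cdh5 and Vwf. These 3 members were called where 14.7% of genes were (median of the members 0.23, of all genes 0.01). All 6 Cav1-KO libraries are listed there, and in Control the 3 males and 1 female are. Within one sex edgeR called 0 of the 10 in that comparison, with 0.808% of genes called in females (3 members unadjusted, 2 by DESeq2) and 1.6% in males (5 unadjusted, 2 by DESeq2). Against hypoxic Cav1-KO, Cav1-RC lungs had more Vwf and Cdh5 and less Egfl7, Sox18, Esam, Emcn and Tie1, 7 members called where 52.6% of genes were (medians -0.38 and 0.00). All 6 hypoxic Cav1-KO libraries are listed and no hypoxic Cav1-RC library is. With a term for the listed libraries in a fit over all 34, Tie1 alone of the 7 was called, and Cdh5 (-0.37), Egfl7 (0.090) and Sox18 (0.19) changed sign. Vwf and Egfl7 were the 2 that also passed an absolute log2 fold change of 1, as 14.7% of all genes did. In females 4 members were called there (20.8% of all genes) and in males 5 (44.5%). Markers of other cells moved in the same comparison over both sexes. In Cav1-RC 7 of 8 alveolar type 2 markers (median 0.73), 7 of 12 immune markers (median 0.85) and 4 of 8 cardiac muscle markers (median 0.75) were higher and 0 of each list lower. Lower there were 4 of 7 erythroid markers (median -1.87) and 3 of 8 platelet markers (median -0.84), with 0 higher, and 5 of 10 smooth muscle and pericyte markers (median -0.35), with 1 higher. Their part in the members' values was not tested. Hypoxic Cav1-RC against hypoxic Control gave 1 call, Emcn, lower in Cav1-RC (9.06% of genes; medians -0.20 and -0.01), and in males alone Emcn, Egfl7 and Esam were called, all lower (37.0% of genes). All 3 hypoxic Control males are listed and no hypoxic Cav1-RC male is. With the listed-library term the male differences were -1.004 for Emcn (adjusted p = 0.188), 0.55 for Egfl7 (adjusted p = 0.381) and 0.033 for Esam (adjusted p = 0.969). Without the Control library with high Xist the 3 were called and lower (-0.83, -0.63 and -0.40), as was Sox18 (-0.47, adjusted p = 0.0225). Over both sexes 6 of 10 smooth muscle and pericyte markers were lower in Cav1-RC than in Control (median -0.68), and 4 of 8 cardiac muscle markers (median 1.28) and 3 of 8 platelet markers (median 1.105) were higher. In males 6 of 10 smooth muscle and pericyte markers were lower and 1 higher (median -0.83), 8 of 8 cardiac muscle markers were higher (median 2.33) and 4 of 8 airway club and ciliated markers were lower (median -0.54). The part of these markers in the members' values was not tested. In females 0 members were called (0.849% of genes; 1 member unadjusted, 0 by DESeq2).

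Between the oxygen levels, Emcn alone of the 10 was called in Control, where 1.44% of the 18561 genes tested were called and 0.846% also passed the fold threshold, as Emcn did. The medians were 0.20 for the members and 0.00 for all genes. In males of the Control genotype Emcn, Sox18 and Tie1 were called, all higher in hypoxia (16.0% of genes, median of the members 0.36). In the same males 7 of 7 cardiac muscle markers (median -2.30) and 4 of 6 erythroid markers (median -2.38) were lower in hypoxia, and their part in the members' values was not tested. Every hypoxic and no normoxic Control male is listed, and with the listed-library term Emcn was at 1.58 (adjusted p = 0.0123), Tie1 at 0.45 (adjusted p = 0.135) and Sox18 at -0.29 (adjusted p = 0.636). Without the hypoxic male with high Xist, Emcn (1.42), Sox18 (0.91) and Vwf (0.71, adjusted p = 0.0282) were called and Tie1 (0.47, adjusted p = 0.0588) was not. In females 0 were (0.0175% of genes, median of the members -0.05; 1 member unadjusted, 1 by DESeq2). In Cav1-KO 8 of the 10 were called, Emcn, Egfl7, Cldn5, Esam and Sox18 higher and Cdh5, Erg and Vwf lower in hypoxia, but 61.7% of all genes were called as well (medians 0.32 and 0.02). Every hypoxic and no normoxic Cav1-KO library is listed. With the listed-library term Emcn alone of the 8 was called (1.24, adjusted p = 0.0398), and Vwf (0.20), Erg (0.085) and Sox18 (-0.60) changed sign. Emcn and Egfl7 passed the fold threshold, as did 17.6% of genes. Within one sex, 6 members were called in Cav1-KO females (38.2% of genes) and 7 in Cav1-KO males (55.1% of genes). In Cav1-RC 0 of the 10 were called by edgeR (2.17% of genes; medians -0.01 and -0.01), although 2, Emcn and Vwf, had an unadjusted p under 0.05 and DESeq2's Wald test called 1. Within one sex edgeR called 0 in Cav1-RC, with 0.0285% of genes in females (1 member unadjusted, 0 by DESeq2) and 7.89% in males (4 unadjusted, 2 by DESeq2).

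Emcn encodes endomucin, a sialomucin of the endothelial surface known from capillaries and veins. In normoxia it was at 60.7 to 78.8 CPM in the 3 female and 42.9 to 72.3 CPM in the 3 male Control libraries. In hypoxia the female Control libraries were at 171, 134 and 132 CPM and the male ones at 157, 207 and 149 CPM. Every hypoxic Control library was therefore above every normoxic one. The rise was 2.5-fold (log2 fold change 1.32, SE 0.15, adjusted p = 0.000972 by edgeR), and without any 1 of the 12 libraries it stayed between 1.24 and 1.42 and was called. It was 1.24 (adjusted p = 0.00146) without the hypoxic male library with high Xist.

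In Cav1-KO lungs Emcn was at 42.0 and 71.1 CPM in the normoxic females and at 57.2 to 61.9 CPM in the normoxic males. The hypoxic libraries stood at 157, 120 and 179 CPM in females and 123, 82.2 and 190 CPM in males, again without overlap. The difference was 2.40-fold (log2 1.26, SE 0.21, adjusted p = 0.000256). With a term for the listed libraries in 1 fit over all 34, it was 1.24 (adjusted p = 0.0398), and Emcn was the only member whose call held there. In that fit the rise in Control was 1.33 (adjusted p = 0.00025).

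Cav1-RC lungs had Emcn at 54.0 to 69.2 CPM in the 5 normoxic libraries. Under hypoxia the females were at 108, 114 and 99.1 CPM and the males at 122, 61.9 and 73.5 CPM, so that 1 hypoxic male lay inside the normoxic range. The difference of 0.62 (SE 0.16, 1.53-fold) did not pass (adjusted p = 0.0806). Set against hypoxic Control directly, Emcn was lower in all 6 hypoxic Cav1-RC libraries than in any of the 6 Control ones (log2 -0.72, SE 0.16, adjusted p = 0.0232). That call was lost without male Cav1-RC replicate 2, male Cav1-RC replicate 3 or female Cav1-RC replicate 1 (adjusted p 0.0511 to 0.0589) and with the listed-library term (-0.72, adjusted p = 0.0610). Whether the response to oxygen differed between Cav1-RC and Control was not tested as such. Against hypoxic Cav1-KO, Emcn was lower by 0.56 (SE 0.20, adjusted p = 0.0347), a call lost on leaving out any 1 of 7 of the 12 libraries (adjusted p 0.0555 to 0.0961). It held without male Cav1-RC replicate 1, female Cav1-RC replicate 2, female Cav1-KO replicate 2 or male Cav1-KO replicates 1 or 2. It was -0.55 and not called with the listed-library term (adjusted p = 0.262).

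Pecam1 encodes the adhesion receptor CD31 found on endothelium, platelets and leukocytes. In normoxic Control lungs it was at 663, 655 and 977 CPM in females and 761, 562 and 656 CPM in males. The Cav1-KO libraries were at 1048 and 1076 CPM in females and 987, 987 and 948 CPM in males, above every Control library of the same sex. The fold change was 1.43 (log2 0.52, SE 0.13, adjusted p = 0.0243), with 0.48 (adjusted p = 0.0269) on the libraries off the list. The call was kept without female Control replicate 1, female Control replicate 3 or male Control replicate 1 and lost without any 1 of the other 8 libraries (adjusted p 0.0526 to 0.0965, log2 fold changes over all 11 from 0.47 to 0.63). Cav1-RC libraries, at 613 and 961 CPM in females and 883 to 935 CPM in males, lay below the Cav1-KO libraries of their sex, with a difference of -0.27 that did not pass (SE 0.12, adjusted p = 0.194). In hypoxia Pecam1 ranged from 755 to 1304 CPM in Cav1-KO, which overlapped Control (644 to 1144 CPM) and Cav1-RC (796 to 1155 CPM).

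Cdh5 encodes VE-cadherin, the cadherin of endothelial adherens junctions. In Cav1-KO lungs it fell from 863 and 965 CPM in normoxic females to 616, 456 and 394 CPM in hypoxic ones. In males it fell from 943, 950 and 836 CPM to 571, 471 and 565 CPM. The groups did not overlap in either sex, and the fold change was 0.550 (log2 -0.86, SE 0.11, adjusted p = 3.09e-05). All 6 hypoxic Cav1-KO libraries are listed and all 5 normoxic ones are not. With the listed-library term the difference was -0.07 (adjusted p = 0.932), and oxygen level and list cannot be told apart here.

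Cdh5 was also lower in hypoxic Cav1-KO than in hypoxic Control (log2 -0.58, SE 0.17, adjusted p = 0.0412). The Control females stood at 673 CPM in the listed library and at 1142 and 1231 CPM in the others, and the 3 listed Control males at 565, 637 and 489 CPM. The male libraries of the 2 genotypes overlapped. All Cav1-KO libraries are listed, at 394 to 616 CPM, beside 489 to 673 CPM in the listed Control libraries. The 2 Control libraries above this range are not listed, and the coefficient of Cdh5 for the listed-library term was -0.79. The call held without female Control replicate 1 or female Cav1-KO replicate 1 and was lost without any 1 of the other 10 (adjusted p 0.0565 to 0.106). Cav1-RC libraries in hypoxia had 521 to 982 CPM, higher than Cav1-KO by 0.43 (SE 0.16, adjusted p = 0.0351). That difference turned to -0.37 with the listed-library term (adjusted p = 0.366), and without any 1 of 7 libraries the call was lost (adjusted p 0.0556 to 0.102). It held without male Cav1-RC replicates 2 or 3, female Cav1-RC replicates 1 or 2 or female Cav1-KO replicate 1. In normoxia Cdh5 was at 836 to 965 CPM in the 5 Cav1-KO libraries and at 499 to 1061 CPM in Control, a difference of 0.41 that did not pass (SE 0.17, adjusted p = 0.134). Without female Control replicate 3, the highest Control library, it was 0.58 and called (adjusted p = 0.00863).

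Cldn5 and Esam, a tight junction claudin and an immunoglobulin-type adhesion molecule that is also found on platelets, were both higher in hypoxic than in normoxic Cav1-KO lungs. Cldn5 was at 471 to 517 CPM in the 5 normoxic Cav1-KO libraries and at 602 to 975 CPM in the 6 hypoxic ones (log2 0.65, SE 0.12, adjusted p = 0.000555). Esam went from 243 to 275 CPM in normoxia to 325 to 474 CPM in hypoxia (log2 0.61, SE 0.09, adjusted p = 0.000121). Neither gene overlapped between the oxygen levels in Cav1-KO. With the listed-library term the differences were 0.35 for Cldn5 (adjusted p = 0.460) and 0.20 for Esam (adjusted p = 0.596). In hypoxic Cav1-RC lungs Esam was at 201 to 285 CPM, below every hypoxic Cav1-KO library (log2 -0.70, SE 0.11, adjusted p = 0.000257). That difference was -0.30 and not called with the listed-library term (adjusted p = 0.257). Cldn5, at 540 to 765 CPM there, overlapped Cav1-KO and did not pass (-0.28, SE 0.14, adjusted p = 0.106). In Control neither differed detectably with oxygen, at 0.10 (SE 0.16) for Cldn5 and 0.02 (SE 0.14) for Esam.

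Vwf encodes von Willebrand factor, the multimeric ligand for platelets that endothelium stores in Weibel-Palade bodies and megakaryocytes also make. Under hypoxia the female Cav1-KO libraries were at 430, 515 and 471 CPM and the male ones at 311, 444 and 394 CPM. The Cav1-RC libraries were at 720, 724 and 998 CPM in females and 801, 1231 and 757 CPM in males. No Cav1-RC library fell to the Cav1-KO range, and the fold change was 2.05 (log2 1.03, SE 0.15, adjusted p = 0.000155), between 0.92 and 1.1 without any 1 library. It was 0.58 with the listed-library term and no longer called (adjusted p = 0.143).

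Hypoxic Control libraries spread widely for Vwf, from 398 CPM in the listed female and 515 CPM in 1 male to 862 CPM. Cav1-KO was lower by 0.73 (SE 0.20, adjusted p = 0.0322), and by 0.56 with the listed-library term (adjusted p = 0.0245). Leaving out the hypoxic male Control library with high Xist gave -0.83 (adjusted p = 0.0301), and the call also held without female Control replicate 1 or male Cav1-KO replicate 2 but was lost without any 1 of the other 9 libraries (adjusted p 0.0569 to 0.0866). In normoxia Vwf was lower in Cav1-KO than in Control by 0.32 (SE 0.10, adjusted p = 0.0492). That value rests on females, whose Control libraries (831, 711 and 743 CPM) lay above Cav1-KO (524 and 507 CPM), while the males overlapped (431 to 568 against 455 to 495 CPM). The sex difference of this change had an unadjusted p of 0.0265 and an adjusted p of 0.999. Without male Control replicate 2 or female Control replicate 3 the call held, and without any 1 of the other 9 it was lost (adjusted p 0.0527 to 0.183). Within Cav1-KO, Vwf was lower in hypoxia by 0.25 (SE 0.10, adjusted p = 0.0400), a call kept without replicate 2 of either hypoxic sex, lost without any 1 of the other 9 libraries (adjusted p 0.0504 to 0.109), and of the opposite sign with the listed-library term (0.20). In Cav1-RC every hypoxic library lay above every normoxic one (469 to 699 CPM in normoxia), but the difference of 0.51 did not pass (SE 0.18, adjusted p = 0.191).

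A list of 10 genes around von Willebrand factor storage and cleavage also holds other contents of the storage bodies. Of the 10, 0 were higher and 1 was lower in hypoxic Cav1-KO than in hypoxic Control, with a median of 0.10. The 1 was Angpt2, an angiopoietin kept in the same storage bodies (log2 -0.98, adjusted p = 0.000598). Platelet and megakaryocyte markers moved the other way from Vwf, with 6 of 8 higher and 0 lower in that comparison (median 1.96) where 14.7% of all genes were called, and with a summed level of 48.3 to 322.4 CPM in hypoxic Cav1-KO against 16.4 to 72.4 CPM in hypoxic Control. Erythroid markers had 6 of 7 higher (median 3.33) and alveolar type 2 markers 6 of 8 lower (median -0.77) there. The part of these markers in the members' values, Vwf, Cdh5, Egfl7, Pecam1 and Esam included, was not tested.

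Tie1 encodes an orphan receptor tyrosine kinase that modulates angiopoietin signalling through its relative Tek. In normoxia the Control libraries were at 394, 357 and 374 CPM in females and 340, 305 and 379 CPM in males. The Cav1-KO libraries were at 439 and 433 CPM in females and 500, 454 and 472 CPM in males. All 5 were above all 6 Control libraries, and the fold change was 1.27 (log2 0.35, SE 0.09, adjusted p = 0.0234). It was 0.37 with the listed-library term (adjusted p = 0.00575) and 0.37 on libraries off the list (adjusted p = 0.0103). The call held without female Control replicates 1 or 3, male Control replicates 1 or 3 or male Cav1-KO replicate 2, and was lost without any 1 of the other 6 libraries (adjusted p 0.0548 to 0.0908).

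Normoxic Cav1-RC libraries held Tie1 at 359 and 370 CPM in females and 354 to 380 CPM in males, below every normoxic Cav1-KO library and inside the Control range. The difference from Cav1-KO was -0.32 (SE 0.07, adjusted p = 0.0229). It was -0.29 and not called (adjusted p = 0.195) without the 2 male libraries with high Xist. Both of these libraries, male Cav1-KO replicates 1 and 3 and both female Cav1-KO libraries each ended the call when left out singly (adjusted p 0.0529 to 0.0985). When female Cav1-RC replicate 2 was left out, Pecam1, Cdh5, Cldn5, Erg and Egfl7 were called as well; the listed replicate 1 was then the only female Cav1-RC library. From Control, the Cav1-RC level differed by 0.03 (SE 0.10, adjusted p = 0.931).

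Tie1 was also lower in Cav1-RC than in Cav1-KO under hypoxia, with some overlap. Cav1-KO had 398 to 667 CPM and Cav1-RC 312 to 440 CPM, a difference of -0.49 (SE 0.11, adjusted p = 0.00313) that kept its call without any 1 library and with the listed-library term (-0.48, adjusted p = 0.0311). It was the only one of the 7 calls in that comparison that the term left in place. The term was estimated from the mixed female groups, none of which is Cav1-KO. All 6 hypoxic Control libraries (433 to 484 CPM) were above all 6 normoxic ones, with a change of 0.36 that did not pass (SE 0.10, adjusted p = 0.0978) but was called with the listed-library term (0.37, adjusted p = 0.0128).

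Erg is an ETS transcription factor that drives Cdh5 and other endothelial genes. Normoxic Control libraries were at 109, 114 and 123 CPM in females and 106, 84.5 and 104 CPM in males. Cav1-KO libraries stood at 126 and 143 CPM and at 152, 148 and 135 CPM. No Cav1-KO library reached down to the Control range, and the fold change was 1.31 (log2 0.39, SE 0.09, adjusted p = 0.0163). It held on libraries off the list (0.38, adjusted p = 0.0136) and was lost with the listed-library term (0.32, adjusted p = 0.0592), without male Cav1-KO replicate 1 and without female Cav1-KO replicate 2 (adjusted p 0.0526 to 0.0985). Normoxic Cav1-RC lungs, at 77.4 to 126 CPM, lay below Cav1-KO of their sex, with a difference of -0.39 (SE 0.12, adjusted p = 0.0686). In hypoxic Cav1-KO libraries Erg was at 89.5 to 116 CPM, below all normoxic ones (log2 -0.45, SE 0.06, adjusted p = 4.68e-05), but the difference was 0.08 with the listed-library term (adjusted p = 0.876). Among the genotypes in hypoxia no difference of Erg was called, with Cav1-KO against Control at 0.02 (SE 0.14) and Cav1-RC against Control at 0.03 (SE 0.17).

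Sox18 is a transcription factor of the SoxF family that acts in developing vessels. In normoxic males it was at 130, 129 and 136 CPM in Control, at 206.3, 198 and 208 CPM in Cav1-KO and at 160, 133 and 156 CPM in the Cav1-RC libraries labelled male, the first 2 of which have high Xist. The Cav1-KO males stood apart from both, with a log2 fold change of 0.64 against Control (SE 0.08, adjusted p = 0.00368) and of -0.46 for Cav1-RC against Cav1-KO (SE 0.08, adjusted p = 0.00307). Neither was called in the fit over all 34 libraries (adjusted p = 0.272 and 0.790). Over both sexes the first was 0.40 (SE 0.14, adjusted p = 0.0848), and with the listed-library term it was 0.61 (adjusted p = 0.0154). In hypoxia Sox18 was lower in Cav1-RC than in Cav1-KO (log2 -0.84, SE 0.18, adjusted p = 0.00217), with 93.9 to 207 CPM against 165 to 329.1 CPM, and it was higher in hypoxic than in normoxic Cav1-KO (0.44, SE 0.16, adjusted p = 0.0317). Both differences changed sign with the term, to 0.19 and -0.60. The second call held without male Cav1-KO hypoxia replicate 2, female Cav1-KO hypoxia replicate 3 or female Cav1-KO normoxia replicate 1 and was lost without any 1 of the other 8 libraries (adjusted p 0.0537 to 0.140).

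Egfl7 encodes a secreted protein of the endothelial matrix that guides vessel assembly. In the 6 hypoxic Cav1-KO libraries it was at 1123, 1019 and 698 CPM in females and 1114, 817 and 982 CPM in males. Normoxic Cav1-KO libraries held 373 to 464 CPM and hypoxic Cav1-RC libraries 348 to 546 CPM. The first set lay above both others, by 1.15 (SE 0.12, adjusted p = 8.15e-06) against normoxia and with -1.02 for Cav1-RC against Cav1-KO (SE 0.15, adjusted p = 0.000139). The listed-library term brought these to 0.04 (adjusted p = 0.962) and 0.09 (adjusted p = 0.858). Against hypoxic Control the difference was 0.71 (SE 0.21, adjusted p = 0.0428) and 0.39 with the term (adjusted p = 0.0826). The Control libraries were at 758, 322.9 and 330 CPM in females, the first being listed, and 744, 628 and 796 CPM in the listed males. That call held without female Control replicate 1, male Cav1-KO replicate 2 or female Cav1-KO replicate 3 and was lost without any 1 of the other 9 libraries (adjusted p 0.0680 to 0.104). Egfl7 overlaps Agpat2, Gm20532 and the microRNA genes Mir126a and Mir126b, so that reads may be shared among them.

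The listed libraries also differed from the others in the members themselves. In the fit over all 34 libraries 45.8% of 19870 genes were called for the term, and 6 of the 10 members were, with Egfl7 (1.12, SE 0.18, adjusted p = 2.03e-05), Sox18 (1.04, SE 0.20, adjusted p = 0.000161) and Esam (0.41, SE 0.12, adjusted p = 0.00794) higher in the listed libraries. Cdh5 (-0.79, SE 0.19, adjusted p = 0.00147), Erg (-0.53, SE 0.14, adjusted p = 0.00281) and Pecam1 (-0.46, SE 0.16, adjusted p = 0.0195) were lower. Vwf (-0.44, SE 0.20) and Cldn5 (0.30, SE 0.16) were not called, and Tie1 (0.02, SE 0.11) and Emcn (0.02, SE 0.23) had coefficients near 0.

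The same contrast can be read within the 3 mixed groups, all female and none Cav1-KO, which alone inform the term. In normoxic female Control the listed library had Egfl7 at 933 CPM, and the other libraries averaged 426 CPM. In hypoxic female Control these were 758 and 326.6 CPM, and in normoxic female Cav1-RC 792 and 392 CPM. Egfl7 was thus higher by 1.02 to 1.21 on the log2 scale in each listed library. Cdh5 was lower in each, by 0.42, 0.82 and 1.13, whereas Tie1 differed by -0.04 to 0.11. Emcn differed in both directions (-0.04, 0.36 and -0.32 in the same order), so that its coefficient near 0 averages opposite signs. Vwf also did (0.19, -1.04 and -0.57).

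The lengths of these members can be set beside their coefficients. Sox18, Esam and Egfl7, higher in the listed libraries, measure 1620, 2867 and 3581 bases in the deposited annotation, and Erg, Cdh5 and Pecam1, lower there, measure 3466, 4203 and 6228 bases. The 4 whose coefficient was not called were Cldn5, with 1416 bases and a coefficient of 0.30, Tie1, with 4917 bases and 0.017, Emcn, with 5409 bases and 0.020, and Vwf, with 16064 bases and -0.44. Over all genes tested, the median coefficient of the term fell from 0.37 in the shortest of 5 equal classes of genes (up to 1592 bases) to -0.28 in the longest (from 6559 bases). By GC content of the longest annotated transcript, the medians of 5 equal classes lay between -0.06 and 0.19. The part of length or GC content in the members' differences was not tested.

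**Figure D4:**
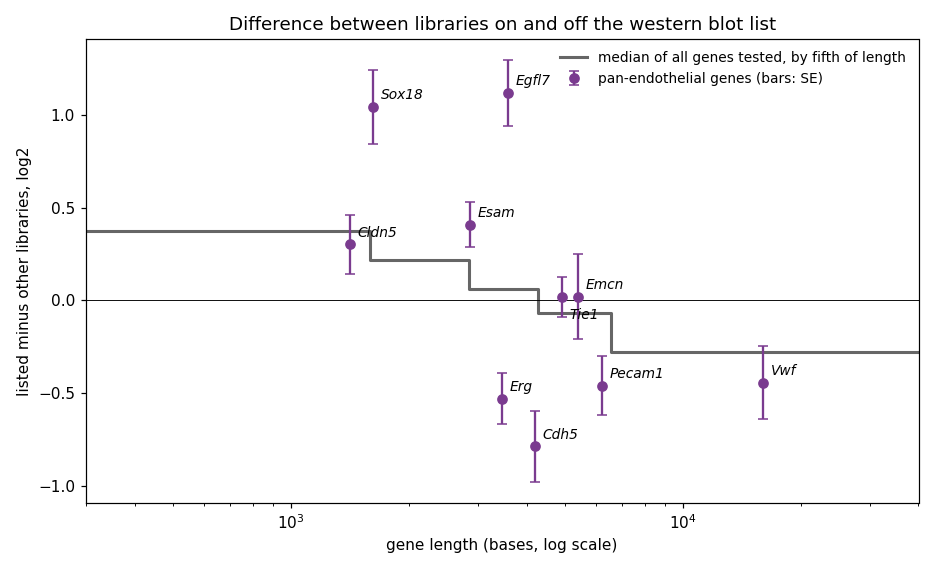
Coefficient of the listed-library term (listed minus other libraries, log2) against gene length on a log axis for the 10 genes, with SE bars, and as a grey step line the median of all genes tested in each of 5 length classes. Egfl7 and Sox18 lie above 1 and Cdh5 at -0.79, while Tie1 and Emcn are near 0.

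After the group means were taken away, the deviations of the members over the 34 libraries were compared in pairs. Of the 45 pairs of members, 29 had a positive Pearson correlation, with a range from -0.58 to 0.92. Cldn5 with Esam (0.92), Pecam1 with Cdh5 (0.92), Egfl7 with Esam (0.90) and Cdh5 with Erg (0.85) were the closest, and Cdh5 with Egfl7 (-0.58) the most opposed. These correlations share the libraries and the scaling and are given as a description. They also hold the difference between listed and other libraries inside the mixed groups, which was not taken away. There Egfl7 was higher by 1.02 to 1.21 and Cdh5 lower by 0.42 to 1.13 in the listed library. Over the 12 group means, the r of each member with the mean of the other 9 ran from -0.54 for Cdh5 to 0.79 for Tie1, so that the 10 genes did not form a single profile. The genes outside the set whose group means were most like the mean of the 10 were Shf (r = 0.945), Palm (0.944), Chmp5 (0.935), Stmn2 (0.934) and Msx1 (0.931), out of 19860 compared over 12 group means.

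Other genes used to recognise endothelium can be set beside the 10. Of 24 such genes, 8 were higher and 0 lower in normoxic Cav1-KO than in Control, with a median of 0.46, where 13.2% of all genes were called, led by Nos3, the endothelial nitric oxide synthase (0.87, adjusted p = 0.000571), Cd34 (0.52, adjusted p = 0.00742) and Mmrn2 (0.79, adjusted p = 0.00808). Of 20 endothelial transcription factors 8 were higher and 0 lower (median 0.36), with Elk3, an ETS factor, at 0.60 (adjusted p = 0.00101). Of 22 partners of the junctions 3 were higher and 0 lower (median 0.36). In Cav1-RC against Cav1-KO in normoxia 0 of the 24 identity genes were higher and 5 were lower (median -0.19), where 9.38% of all genes were called, among them Tek, the angiopoietin receptor (-0.45, adjusted p = 0.0224).

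Under oxygen change in Control the 24 identity genes had 2 higher and 3 lower (median -0.02), where 1.44% of all genes were called. Plvap, which forms the diaphragms of endothelial fenestrae, fell by 2.39 on the log2 scale (adjusted p = 1.86e-05), in the opposite direction to Emcn. In Cav1-KO, where 61.7% of all genes were called and where every hypoxic and no normoxic library is listed, 5 were higher and 15 lower (median -0.58). There Nos3 rose by 1.23 (adjusted p = 5.44e-07) and Kdr, the main VEGF receptor, fell by 1.46 (adjusted p = 5.87e-07). Junction partners had 2 higher and 13 lower of 22 (median -0.29), 15 called in all, a share near that of all genes, and Vcl, the adhesion protein vinculin, fell by 3.26 (adjusted p = 3.84e-07). In the same comparison 8 of 8 platelet markers (median 2.62) and 6 of 7 erythroid markers (median 2.94) were higher and 7 of 8 alveolar type 2 markers were lower (median -0.99). Airway club and ciliated markers had 8 of 8 higher (median 1.52), and fibroblast markers had 6 of 8 lower (median -0.99). The summed platelet markers were at 48.3 to 322.4 CPM in hypoxic and 18.3 to 25.1 CPM in normoxic Cav1-KO libraries, and their part in the members' values was not tested.

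Whether a fold change differed between females and males was tested by subtracting the male value from the female one. In the 9 comparisons 0 genes were called by edgeR, members included. Among the members, 5 of 90 such values had an unadjusted p under 0.05, the smallest being Cdh5 in hypoxic Cav1-KO against hypoxic Control (-0.99, SE 0.34, unadjusted p = 0.0124, adjusted p = 0.257), where the female change was -1.07 and the male change -0.10. The male values of 6 of these comparisons hold libraries with high Xist, as the male change of Cdh5 does. Without them, a setting chosen after the data were seen, edgeR called 0 members in those 6 (2 of 60 values unadjusted), and Cdh5 was at -1.11 (SE 0.37, adjusted p = 0.197). An edgeR fit with the listed-library term, also tried later, called 0 members in the 9 (5 of 90 unadjusted) and gave 17 calls over all genes. Cdh5 was at -0.40 there (SE 0.32, adjusted p = 0.819). The smallest unadjusted p of a member in that fit was for Vwf in hypoxic against normoxic Control (-1.23, SE 0.38, unadjusted p = 0.0034, adjusted p = 0.724). DESeq2 was not run on these differences.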

How the data were processed

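Whole-lung RNA was sequenced in 34 libraries of 12 groups (3 genotypes, 2 sexes, 2 oxygen levels). The authors deposited raw counts per gene and, in a second table, FPKM values, which are scaled to library size and gene length. Per the submitters' processing notes, HISAT2 2.0.5 and featureCounts 1.5.0-p3 were used with build mm10. The libraries keep strand, but featureCounts was run at its defaults, which count without strand, so reads of overlapping genes on opposite strands cannot be told apart. Columns that matched no sample numbered 0.

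Counts were tested with edgeR 4.0.16 in R 4.3.3 (TMM factors, filterByExpr, quasi-likelihood test) on the groups of each comparison, with the female and male fold changes averaged, tested apart and subtracted, and p-values were adjusted by Benjamini-Hochberg over all genes tested. Alternatives were DESeq2 1.42.0 (Wald test, size factors), no filter, an absolute log2 fold change above 1, 1 fit over all 34 libraries with and without a term for the western blot list, the replicate block, libraries left out, and limma 3.58.1 on log2(FPKM + 1) or log2(FPKM + 0.1) with a filter at a mean FPKM of 0.1. The fit was tested on simulated data with 200 changed genes. The library names carry separate animal numbers, and all libraries carry the same batch label.

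The members and all gene lists were chosen with earlier results of these data known. The text names the 10 members, up to 3 genes of a list with the smallest adjusted p in a comparison, Cav1 and sex-linked genes as checks, and the 5 genes whose group means were most like the members' mean. Replicate numbers paired the libraries in neither the labels nor the data: 11 of 49 same-numbered pairs had a correlation of deviations over 0.1. The western blot list was read from the study's source data. Depth was 12425535 to 33343006 counts per library.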

Additional observations from a re-analysis of the deposited data

Results flagged for a closer look

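The library whose label gives no certain group, and names a normoxic Cav1-KO female as possible, entered no comparison, and 7 of the 10 genes were higher in it than in any Control library. It held Pecam1 at 1180 CPM, Cldn5 at 815 CPM, Tie1 at 594 CPM, Emcn at 248 CPM, Egfl7 at 1236 CPM, Esam at 441 CPM and Sox18 at 303 CPM. Of these, Emcn and Egfl7 were also above all 34 libraries with a group. Vwf, at 319 CPM, was below every Control library, and Cdh5 and Erg lay inside the Control range. It is 1 library with no replicate, and it stands on the western blot list, for which 45.8% of 19870 genes were called. The share of all genes that lay above every Control library in it was not counted.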

How the results depend on the processing

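Signs changed in 16 values, all in the fit over 34 libraries with the listed-library term. For Cav1-RC against Cav1-KO in hypoxia these were Cdh5 (-0.37), Egfl7 (0.090) and Sox18 (0.19), in females Egfl7 (0.035) and Sox18 (0.033), and in males Egfl7 (0.15) and Sox18 (0.35). For hypoxia against normoxia in Cav1-KO they were Vwf (0.20), Erg (0.085) and Sox18 (-0.60), and in males Erg (0.17), Egfl7 (-0.030) and Sox18 (-0.59). Male Egfl7 (0.55) and Esam (0.033) in Cav1-RC against Control in hypoxia and male Sox18 (-0.29) in hypoxic against normoxic Control also changed sign. The cause was not tested.

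The number of members called moved as follows. Cav1-KO against Control in normoxia (4) gave 2 without a filter on counts, 2 with limma without a filter and 0 with the fold threshold. Cav1-RC against Cav1-KO in normoxia (1) gave 2 with DESeq2's Wald test, 2 without a filter, 3 on libraries off the list, and 0 with the fold threshold or without the libraries with high Xist. Cav1-KO against Control in hypoxia (3) gave 1 without the library with high Xist, 1 with limma at either pseudocount, 0 with limma without a filter and 0 with the fold threshold. Cav1-RC against Cav1-KO in hypoxia (7) gave 1 with the listed-library term and 2 with the fold threshold, and hypoxia in Cav1-KO (8) gave 1 and 2. Cav1-RC against Control in hypoxia (1) gave 2 with DESeq2's Wald test, 2 with 1 fit over all libraries, 0 with the fold threshold and 0 with limma without a filter. Hypoxia in Control (1) gave 2 with DESeq2's Wald test, 2 with 1 fit over all libraries and 4 with the listed-library term. Hypoxia in Cav1-RC (0) gave 1 with DESeq2's Wald test and 1 without a filter, and its median of -0.01 became 0.13 with the listed-library term.

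Without 1 library at a time, the members called ranged in normoxia from 0 to 5 (Cav1-KO against Control), 0 to 6 (Cav1-RC against Cav1-KO) and 0 to 0 (Cav1-RC against Control), in hypoxia from 0 to 5, 5 to 7 and 0 to 1 in the same order, and between oxygen levels from 1 to 1 in Control, 6 to 9 in Cav1-KO and 0 to 0 in Cav1-RC. Their medians then ranged in the same order from 0.06 to 0.18, -0.13 to -0.06, -0.06 to 0.07, 0.15 to 0.30, -0.45 to -0.33, -0.28 to -0.07, 0.15 to 0.26, 0.27 to 0.41 and -0.061 to 0.13.

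For the difference between the sexes, 0 members were called over all settings run, but without the libraries with high Xist the number of all genes called in hypoxia went from 0 to 110 (Cav1-KO against Control) and 181 (Cav1-RC against Control), and to 72 between oxygen levels in Control.

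With the replicate block, the members called numbered 0 in Cav1-RC against Cav1-KO in normoxia, where Tie1 had -0.32 (adjusted p = 0.0590 in place of 0.0229), and 3 in Cav1-KO against Control in normoxia, where Vwf had -0.33 (adjusted p = 0.0796). Between the same genotypes in hypoxia the block gave Cdh5 an adjusted p of 0.0609 and Esam one of 0.0381. The block correlations of same-numbered libraries ran from -0.17 to 0.56.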
